A study of Mus musculus with 6 samples.

Results

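The endothelial marker genes described here are 10 genes that mark the inner lining of blood vessels, read by their symbols from a table of gene expression in whole fetal mouse ovaries. All 10 symbols (*Cdh5*, *Cldn5*, *Esam*, *Pecam1*, *Kdr*, *Flt1*, *Tek*, *Tie1*, *Emcn* and *Sox17*) were found once each among the 54532 genes of the table. RNA was sequenced from whole ovaries of C57BL/6 mice at 16.5 days post-coitus, in 3 Ctrl and 3 cKO libraries. The Ctrl mice are wild type by their labels. The cKO mice carry the *Stra8-GFPCre* transgene and the conditional *Srsf1* Fl/Fl allele, and the *Stra8* promoter drives Cre in germ cells that enter meiosis, where exons of *Srsf1*, which encodes a splicing factor, are removed. The promoter is not one of endothelial cells, which keep *Srsf1* by design. No source used here gives the number of ovaries in a library. The extraction text of the labels names retina, whereas their tissue field and the study's methods name ovary. All 10 germ-cell and all 10 pregranulosa genes of lists that mark the ovary reached the level at which genes were tested, as did the 10 endothelial markers and 30 of 30 other endothelial genes.

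Endothelial cells form a single layer that holds blood in the vessel and lets nutrients and cells through. They are joined by adhesion molecules at their borders, and they read growth signals through 2 families of receptor tyrosine kinases, the receptors for vascular endothelial growth factor (VEGF) and the TIE receptors for angiopoietins. In the fetal gonad, vessels grow in from the neighbouring mesonephros while germ cells proliferate and enter meiosis, and the endothelium makes up a small share of the organ. Whole-organ RNA mixes these cell types, so fewer endothelial cells and less RNA per endothelial cell cannot be told apart in any value given here.

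Values are FPKM, the reads on a gene divided by its length and by a size for the library. That size was not the total of reads on genes. It was 0.965, 1.03 and 1.04 times that total in Ctrl 1, 2 and 3, and 0.992, 0.9998 and 0.999 times in cKO 1, 2 and 3. Levels per library include this scaling. Multiplying by length and dividing by the value of a single read, fitted in each library, gave whole numbers of reads for all values, to within 0.05. Reads on genes ran from 14212164 to 16784241 per library. The 10 markers held between 174 and 2273 reads each in every library. To compare cKO with Ctrl, limma was run on log2(FPKM + 1), two-sided, for 17180 genes whose mean FPKM reached 0.5, and a p below 0.05 without adjustment was counted, which is the limit the study used. The fold changes below are cKO minus Ctrl on this scale, which understates the changes of low genes. All 10 markers entered the test. Adjusted p-values are Benjamini-Hochberg values over all genes tested. The exact permutation test over libraries, also two-sided, cannot go below p = 0.1 with 3 libraries against 3. The methods call the 3 libraries of a group biological replicates, and p-values measure the spread between them.

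*Srsf1*, the targeted gene, was at 80.2, 70.1 and 63.1 FPKM in the Ctrl libraries 1, 2 and 3, with 32.4, 37.0 and 36.4 for cKO 1, 2 and 3. It fell by 0.99 on the log2 scale (SE 0.13, limma p = 0.000158, adjusted p = 0.497, exact permutation p = 0.1), and the groups did not overlap. Over all genes tested, 761 passed the unadjusted limit, 460 of them higher in cKO and 301 lower, and 0 passed an adjusted p below 0.05 in limma, where the smallest was 0.392. Without Ctrl 1, 4 genes passed the adjusted limit, none of them an endothelial marker, with a smallest adjusted p of 0.00129 in limma. The direction of the calls also depended on single libraries, with 243 higher and 382 lower without Ctrl 1, and 548 higher and 628 lower without Ctrl 3.

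None of the endothelial markers differed between cKO and Ctrl beyond the spread between libraries. In limma, 0 of the 10 passed the unadjusted limit, against 4.43% of all genes tested (2.68% higher in cKO and 1.75% lower), and the voom fit on the recovered reads also called 0. Ctrl and cKO libraries overlapped for all 10 markers, whereas the groups did not overlap for 8.68% of all genes tested (4.59% higher and 4.1% lower in cKO). Fold changes ran from -0.11 for *Cdh5* to 0.09 for *Emcn*, with 3 above 0 and 7 below. Their median was -0.04, beside -0.01 for all genes. The median size of a change, regardless of sign, was 0.07 for the markers and 0.13 for all genes, and 58.2% of all genes tested had a larger change than any marker. The unadjusted p-values of the markers were between 0.493 and 0.952 and the adjusted ones between 0.983 and 0.999 (limma). These p-values do not show that the levels were the same: the 95% confidence intervals of the 10 fold changes reached down to -0.63 and up to 0.49, both for *Cldn5*, with half-widths of 0.30 for *Pecam1* to 0.56 for *Cldn5*.

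**Figure D1:**
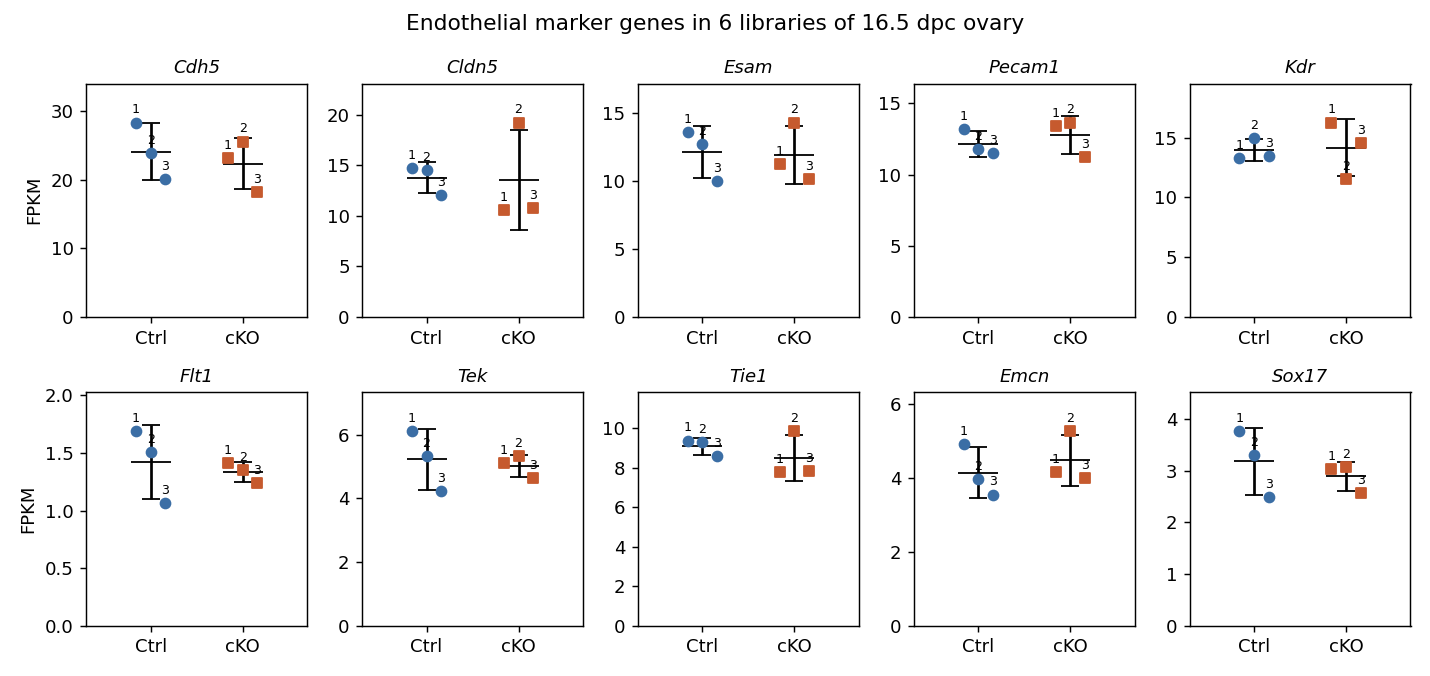
FPKM of each of the 10 endothelial markers in every library, with Ctrl and cKO libraries drawn apart and the mean ± SD of each group (n = 3). Cdh5 is the highest marker (18.2 to 28.3 FPKM) and Flt1 the lowest (1.07 to 1.69), and Ctrl and cKO points overlap for every marker.

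The junction genes hold endothelial cells together. *Cdh5* (ENSMUSG00000031871; GRCm38 chr8:104101625-104144511, plus strand, 12 exons in its longest coding transcript) encodes VE-cadherin, the adhesion molecule of the endothelial adherens junction. It was at 28.3, 23.8 and 20.2 FPKM in Ctrl 1, 2 and 3, with cKO 1, 2 and 3 at 23.1, 25.5 and 18.2 FPKM. Ctrl 1 was the highest library and cKO 3 the lowest, and the groups overlapped. The means were 24.1 ± 4.09 in Ctrl and 22.3 ± 3.72 in cKO (SD, n = 3), a log2 fold change of -0.11 (SE 0.18, 95% confidence interval -0.53 to 0.31, limma p = 0.567, adjusted p = 0.986, exact permutation p = 0.6).

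*Cldn5* (ENSMUSG00000041378; chr16:18776847-18778262, plus strand, 1 exon) encodes claudin 5, which seals the tight junction between endothelial cells. Its values were 14.7, 14.6 and 12.0 FPKM in Ctrl and 10.6, 19.2 and 10.7 FPKM in cKO, given in the order of replicates 1, 2 and 3 here and below. Both the highest and the lowest library belonged to cKO, with cKO 1 and cKO 3 below every Ctrl library and cKO 2 above every one. The means of 13.8 ± 1.51 and 13.5 ± 4.94 FPKM differed by -0.07 on the log2 scale (SE 0.24, limma p = 0.770, adjusted p = 0.990, exact permutation p = 0.8). The cKO libraries varied by 36.6% of their mean, against 10.9% in Ctrl, while counting error alone was 5.69%. Without cKO 2, the fold change of *Cldn5* was -0.34 and passed the unadjusted limit (limma, adjusted p = 0.320). In that setting, 2493 of the 17180 genes tested passed, against 761 with all libraries. *Cldn5* was the only marker that passed with a library left out.

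*Esam* (ENSMUSG00000001946; chr9:37528078-37538319, plus strand, 7 exons) encodes an adhesion molecule of the endothelial tight junction. It was at 13.6, 12.8 and 10.003 FPKM in Ctrl and at 11.3, 14.3 and 10.1 FPKM in cKO. The lowest library was Ctrl 3 and the highest was cKO 2, and the fold change was -0.03 (SE 0.17, limma p = 0.877, adjusted p = 0.995, exact permutation p = 1). *Pecam1* (ENSMUSG00000020717; chr11:106654217-106750628, minus strand, 16 exons) encodes CD31, an adhesion molecule of the borders between endothelial cells, which platelets, leukocytes and fetal germ cells also carry. It was at 13.2, 11.8 and 11.5 FPKM in Ctrl and at 13.4, 13.7 and 11.2 FPKM in cKO. *Pecam1* was the steadiest marker, with its highest library at 1.22 times the lowest, and its means of 12.2 ± 0.910 and 12.8 ± 1.34 FPKM differed by 0.06 on the log2 scale (SE 0.13, limma p = 0.634, adjusted p = 0.986, exact permutation p = 0.7).

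Since germ cells of the fetal gonad carry PECAM1, and VE-cadherin is kept to endothelium, the FPKM of *Pecam1* was divided by that of *Cdh5* in each library. In Ctrl 1, 2 and 3 the ratio stood at 0.466, 0.495 and 0.570, while cKO 1, 2 and 3 had 0.580, 0.534 and 0.615. It was lowest in Ctrl 1 and highest in cKO 3, and the groups overlapped. The log2 ratios differed by 0.18 (exact permutation test, p = 0.2, Benjamini-Hochberg p = 0.6 over the 3 ratios tested). Germ-cell genes moved with this ratio: the summed FPKM of 10 germ-cell genes was 157, 301 and 567 across the Ctrl libraries and 708, 284 and 787 across those of cKO, an order of libraries that differs from that of the ratio only in Ctrl 2 and cKO 2 trading places. The part of germ cells in the ratio was not tested.

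The receptors of VEGF are the main growth receptors of endothelium. *Kdr* encodes VEGFR2, which carries the signal, and *Flt1* encodes VEGFR1, which binds VEGF-A tightly but signals weakly and in its soluble form acts as a decoy. The windows around their start sites are given because their levels are compared as a ratio and because they differed in how closely they followed the other markers across libraries. The sequences are those of RefSeq for GRCm38.p6, from 250 bases before to 50 after the start site, read 5′ to 3′ on the minus strand that holds both genes, *Kdr* at chr5:75978406-75978705 and *Flt1* at chr5:147725962-147726261. Capitals mark AGGAAG (a core that ETS factors can bind), TATAAA and GGGCGG (a GC box), on either strand.
Kdr: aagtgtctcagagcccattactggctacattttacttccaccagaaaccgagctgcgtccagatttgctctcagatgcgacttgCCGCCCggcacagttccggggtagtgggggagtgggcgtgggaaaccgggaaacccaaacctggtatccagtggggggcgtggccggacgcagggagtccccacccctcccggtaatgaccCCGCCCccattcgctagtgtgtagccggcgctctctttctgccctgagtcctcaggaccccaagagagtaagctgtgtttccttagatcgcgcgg
Flt1: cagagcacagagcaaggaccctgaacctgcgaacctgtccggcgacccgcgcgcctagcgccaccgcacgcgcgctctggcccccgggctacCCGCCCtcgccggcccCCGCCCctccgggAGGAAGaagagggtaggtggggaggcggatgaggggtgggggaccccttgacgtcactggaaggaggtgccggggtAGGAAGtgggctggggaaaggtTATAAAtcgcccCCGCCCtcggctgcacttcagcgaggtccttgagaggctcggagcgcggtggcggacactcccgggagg

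The *Kdr* window held GGGCGG at 2 places, with first bases at -166 and -45 from the start site. The *Flt1* window held GGGCGG at 3 places, AGGAAG at 2, at -129 and -53, and TATAAA at -31, and no match overlapped another. GC content was 60.7% for *Kdr* and 70.7% for *Flt1*, against a median of 52.7% over 32851 promoter windows of the same length. Of these windows, 35.7% held GGGCGG, 35.4% held AGGAAG and 13.6% held TATAAA. Windows were found for 6 of the 10 markers (*Kdr*, *Flt1*, *Tek*, *Tie1*, *Emcn* and *Cldn5*), of which 3 held GGGCGG, 3 held AGGAAG and 1 held TATAAA. These matches describe letters in a window and no binding was measured.

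*Kdr* (ENSMUSG00000062960; chr5:75932827-75978458, minus strand, 30 exons) was at 13.3, 15.0 and 13.5 FPKM in Ctrl and at 16.3, 11.6 and 14.6 FPKM in cKO. The highest and the lowest library were both cKO, cKO 1 and cKO 2, and the Ctrl libraries lay between them. The fold change was 0.01 (SE 0.15, 95% confidence interval -0.34 to 0.36, limma p = 0.952, adjusted p = 0.999, exact permutation p = 1), from means of 13.9 ± 0.919 and 14.1 ± 2.38 FPKM.

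*Flt1* (ENSMUSG00000029648; chr5:147561604-147726011, minus strand, 30 exons) was the lowest marker per length, at 1.69, 1.51 and 1.07 FPKM in Ctrl and 1.41, 1.35 and 1.24 FPKM in cKO. All cKO libraries lay within the range of Ctrl, whose own spread was 22.5% of its mean, and the fold change was -0.04 (SE 0.16, limma p = 0.782, adjusted p = 0.991, exact permutation p = 0.8). The length used for *Flt1* in the table, 13504 bases, covers all its annotated exons, while its longest coding transcript is 6895 bases long. Counted over that transcript instead, its mean was 2.70 FPKM.

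The ratio of *Flt1* to *Kdr* in FPKM was 0.127, 0.101 and 0.0792 across the Ctrl libraries, while the cKO ratios were 0.0868, 0.117 and 0.0851. Ctrl held both its highest and its lowest value, and the log2 ratios differed by -0.08 (exact permutation test, p = 0.8, Benjamini-Hochberg p = 0.8). Left without Ctrl 1, the difference turned to 0.09.

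**Figure D2:**
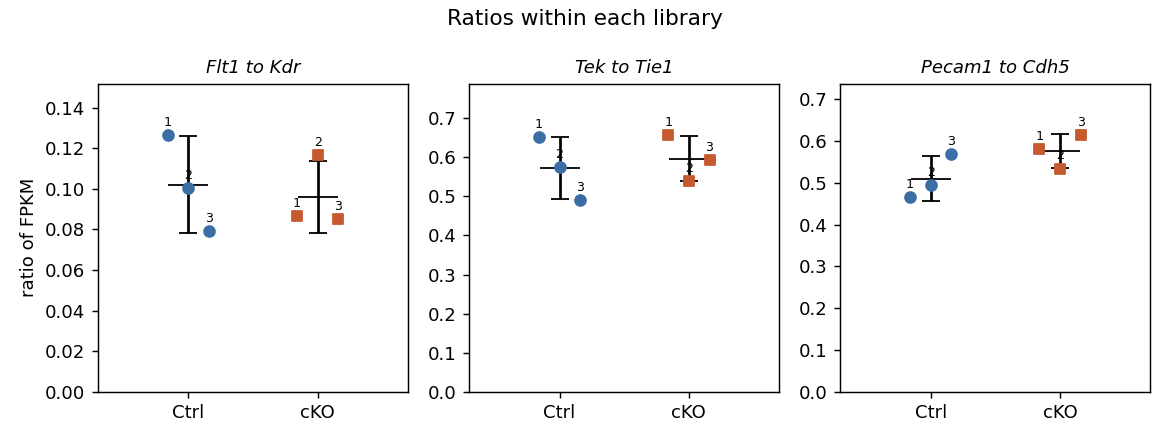
Ratio of FPKM of Flt1 to Kdr, Tek to Tie1 and Pecam1 to Cdh5 in each library, with the mean ± SD of each group (n = 3). The groups overlap in all 3 ratios, and Pecam1 to Cdh5 runs from 0.466 in Ctrl 1 to 0.615 in cKO 3.

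The TIE receptors act in the maturation and quiescence of vessels. *Tek* (ENSMUSG00000006386; chr4:94739289-94874976, plus strand, 23 exons) encodes TIE2, the receptor of the angiopoietins. It was at 6.11, 5.35 and 4.23 FPKM in Ctrl and at 5.12, 5.32 and 4.65 FPKM in cKO. As with *Flt1*, the cKO values all lay inside the Ctrl range, and the fold change was -0.04 (SE 0.15, limma p = 0.814, adjusted p = 0.992, exact permutation p = 0.8). *Tie1* (ENSMUSG00000033191; chr4:118471191-118490061, minus strand, 22 exons) encodes the partner of TIE2, a related receptor that modulates its signal. It was at 9.38, 9.30 and 8.59 FPKM in Ctrl and at 7.79, 9.85 and 7.84 FPKM in cKO. In cKO 1 and cKO 3 it was below every Ctrl library and in cKO 2 above every one, the same arrangement as for *Cldn5* but over a narrower range. Its fold change was -0.09 (SE 0.13, 95% confidence interval -0.40 to 0.22, limma p = 0.493, adjusted p = 0.983, exact permutation p = 0.4), the lowest p-value among the 10 markers.

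The ratio of *Tek* to *Tie1* was 0.651, 0.575 and 0.492 across the Ctrl libraries, with 0.657, 0.540 and 0.593 for cKO. Means of 0.573 ± 0.0797 and 0.597 ± 0.0586 differed by less than the spread between libraries (difference of log2 ratios 0.06, exact permutation test, p = 0.6, Benjamini-Hochberg p = 0.8). The difference was -0.04 without Ctrl 3 and -0.01 without cKO 1.

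*Emcn* (ENSMUSG00000054690; chr3:137341067-137432185, plus strand, 12 exons) encodes endomucin, a sialoglycoprotein on the surface of capillary and venous endothelium. It was at 4.91, 3.96 and 3.55 FPKM in Ctrl and at 4.16, 5.26 and 3.98 FPKM in cKO. The highest library was cKO 2 and the lowest Ctrl 3, and the groups overlapped. The means of 4.14 ± 0.697 and 4.47 ± 0.688 FPKM differed by 0.09 on the log2 scale (SE 0.16, limma p = 0.586, adjusted p = 0.986, exact permutation p = 0.5). *Sox17* (ENSMUSG00000025902; chr1:4490931-4497354, minus strand, 4 exons) encodes a transcription factor of arterial endothelium and, earlier in development, of endoderm. It was at 3.76, 3.30 and 2.48 FPKM in Ctrl and at 3.04, 3.07 and 2.57 FPKM in cKO, with all cKO values inside the Ctrl range and a fold change of -0.09 (SE 0.16, limma p = 0.576, adjusted p = 0.986, exact permutation p = 0.5). *Sox17* was the only marker whose exons overlap those of another gene, *Gm37587* on the opposite strand, over 804 bases. *Gm37587* held 2 reads in Ctrl 2, 2 in cKO 3 and 0 in the other libraries, while *Sox17* held at least 174 in each. No source used here says whether strand was used in counting.

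**Figure D3:**
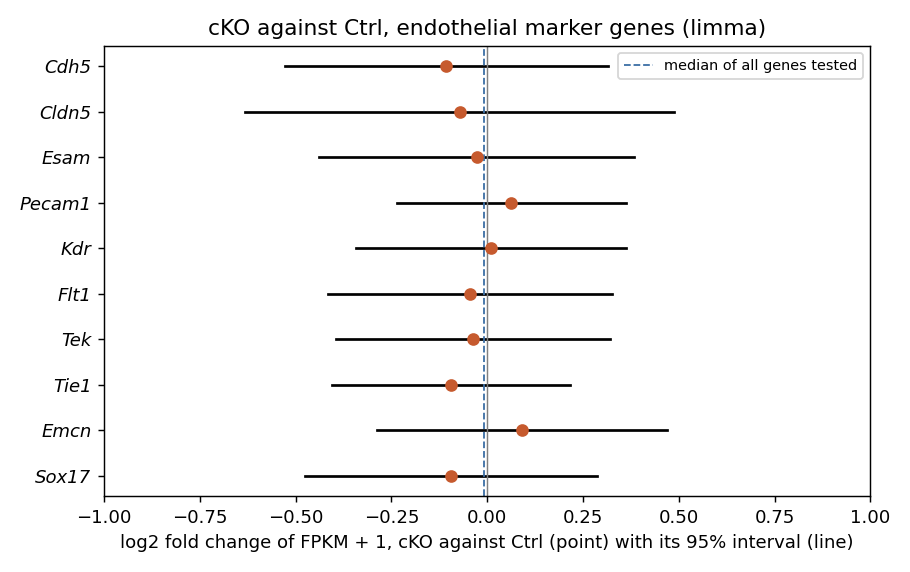
Log2 fold change (cKO minus Ctrl, on log2(FPKM + 1)) of the 10 endothelial markers as points with their 95% confidence intervals, beside the median of all genes tested. All 10 intervals span 0, and the points lie between -0.11 (Cdh5) and 0.09 (Emcn).

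Ranked by mean FPKM over the 6 libraries, *Cdh5* was the highest marker at 23.2 FPKM, followed by *Kdr* at 14.0, *Cldn5* at 13.7, *Pecam1* at 12.5, *Esam* at 12.0, *Tie1* at 8.79, *Tek* at 5.13, *Emcn* at 4.30, *Sox17* at 3.04 and *Flt1* at 1.38. *Cdh5* was above *Kdr* in 6 of 6 libraries with no overlap of their ranges. The next 4 markers, *Kdr* to *Esam*, could not be ordered: each range overlapped that of its neighbour, and *Kdr* was above *Cldn5* in 4 libraries and *Pecam1* above *Esam* in 3. *Esam* lay above *Tie1*, *Tie1* above *Tek* and *Sox17* above *Flt1* without overlap. *Tek* and *Emcn* overlapped in range, as did *Emcn* and *Sox17*, although in both pairs the first gene was higher in 6 of 6 libraries. The length that divides the reads matters for this order. With each gene's longest coding transcript in its place, *Cdh5* stood at 24.4 FPKM, *Pecam1* at 22.5, *Kdr* at 21.4 and *Esam* at 18.5, so that *Pecam1* moved from the fourth to the second place, and *Emcn* at 8.99 passed *Tek* at 5.19. *Cdh5* stayed first and *Flt1* last.

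Although no marker passed the test between groups, single libraries stood apart, and most markers shared the pattern. With each marker centred on its own mean on the log2(FPKM + 1) scale, the mean of the 10 was 0.15, 0.05 and -0.16 across Ctrl 1, 2 and 3, with -0.02, 0.12 and -0.15 for cKO. These values include the scaling of each library given above, whose part in the pattern was not tested. In Ctrl 1, 9 of the 10 markers were above their own mean, and in Ctrl 3 none was. In cKO 2, 8 markers were above and in cKO 3 only 1, *Kdr*. Ctrl 1 was the highest library for 4 markers (*Cdh5*, *Tek*, *Flt1* and *Sox17*) and cKO 2 for 5 (*Pecam1*, *Tie1*, *Emcn*, *Esam* and *Cldn5*). Ctrl 3 was the lowest for 5 (*Tek*, *Flt1*, *Emcn*, *Esam* and *Sox17*). The within-group SD of a marker on the log2 scale had a median of 0.18, from 0.12 to 0.34, beside 0.22 for all genes tested.

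**Figure D4:**
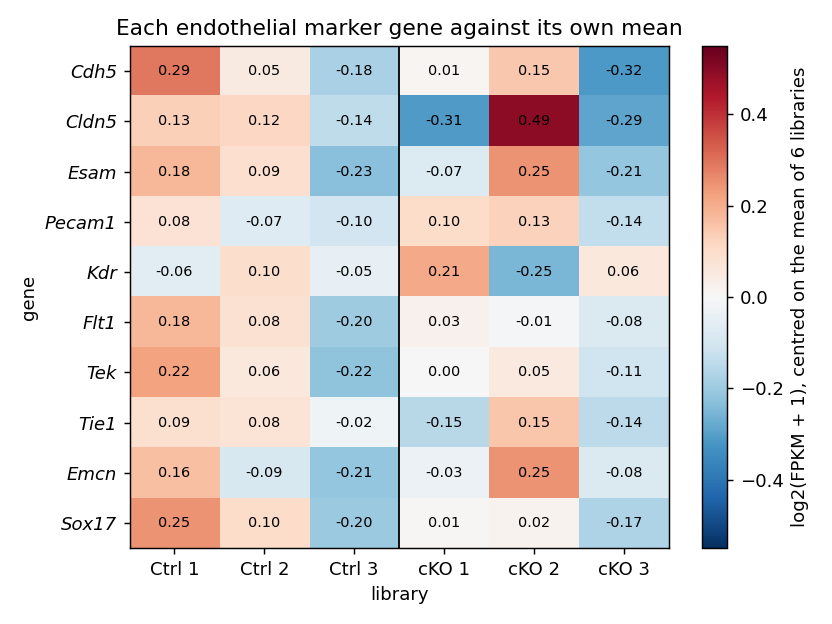
Centred log2(FPKM + 1) of the 10 endothelial markers in the 6 libraries, 1 row per marker, drawn as colour on the scale at the right. Most markers are high in Ctrl 1 and cKO 2 and low in Ctrl 3 and cKO 3, whereas Kdr is lowest in cKO 2 and highest in cKO 1.

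How closely each marker followed the pattern was counted over the 15 pairs of libraries, each marker itself being part of the mean. *Cdh5*, *Tek*, *Esam* and *Sox17* ordered 14 pairs as the mean of the 10 did, *Flt1* 13, *Emcn* 12, and *Pecam1*, *Tie1* and *Cldn5* 11 each. *Kdr* ordered 6 pairs alike. Set against the mean of the other 9 markers, *Kdr* was at -0.28, 0.04 and 0.16 across the Ctrl libraries, with cKO at 0.27, -0.45 and 0.26. This relative level is on a centred log2 scale of FPKM without the added 1. It was lowest in Ctrl 1 and cKO 2, where the other markers were highest, which follows in part from subtracting them. On the log2(FPKM + 1) scale, *Kdr* itself was at -0.06 in Ctrl 1 and -0.25 in cKO 2. The relative level of *Kdr* differed by 0.05 between cKO and Ctrl (exact permutation test, p = 0.8). *Kdr* held between 1754 and 2273 reads per library, a counting error of 2.23% of its level. *Cldn5* had the widest range relative to the other 9 markers, 0.78, at -0.05, 0.07 and 0.05 across the Ctrl libraries, with cKO at -0.35, 0.43 and -0.16. Over the 10 markers, the lowest exact permutation p for this relative level was 0.2 (*Emcn*, difference 0.17), where 0.1 is the lowest that 3 libraries against 3 allow.

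Levels of other cell types moved between the same libraries. Summed over the 10 markers, the Ctrl libraries had 109, 101 and 87.1 FPKM, with 96.2, 109 and 85.2 FPKM for cKO, a mean of 99.2 ± 11.1 against 96.9 ± 12.0 (SD, n = 3), and the highest library was 1.28 times the lowest. The germ-cell sum given above was lowest in Ctrl 1 and cKO 2, where the endothelial sum was highest, and its highest library was 4.999 times its lowest, with cKO 1 high in germ-cell genes and in between for endothelial ones. Germ-cell sums ranged from 157 to 567 FPKM in Ctrl and from 284 to 787 in cKO, with all 10 genes of the list tested. Of the 10, 2 passed the unadjusted limit in limma, against 4.43% of all genes tested. *Dazl*, an RNA-binding protein of germ cells, rose by 1.60 (limma p = 0.0345, exact permutation p = 0.2) and *Dppa3*, a gene of primordial germ cells and oocytes, by 1.34 (limma p = 0.0312, exact permutation p = 0.1), both with an adjusted p of 0.978. *Dazl* missed the unadjusted limit without Ctrl 1 (1.18), Ctrl 2 (1.55), cKO 1 (1.40) or cKO 3 (1.21), and *Dppa3* without Ctrl 1 (1.39), Ctrl 2 (1.02) or cKO 3 (0.83). The 11 genes of red blood cells summed to 4917 to 23438 FPKM in Ctrl and 1743 to 10501 in cKO. Their sum was highest in Ctrl 1 and lowest in cKO 1. Of these 11 genes, 9 had a fold change below 0 and 2 above, with a median of -0.75. Against most of the list, the embryonic globin *Hbb-y* rose by 2.10 (limma p = 0.00589, adjusted p = 0.978, exact permutation p = 0.1). It alone of the 11 passed the unadjusted limit, against 4.43% of all genes tested. Pregranulosa genes, which mark the supporting cells of the ovary, summed to 595, 552 and 498 FPKM in Ctrl and 500.3, 685 and 561 in cKO. Genes of pericytes and smooth muscle, the cells that wrap vessels, summed to 111, 86.9 and 97.4 FPKM in Ctrl and 104, 108 and 72.6 in cKO, lowest in cKO 3 as the endothelial sum was. That was not particular to vessels: sums of stroma genes (679 FPKM) and of mesonephros and duct genes (144 FPKM) were also lowest in cKO 3. The macrophage sum was lowest in cKO 1 (34.3 FPKM), and that of 30 other endothelial genes in Ctrl 3 (192 FPKM). Of the 7 genes of megakaryocytes and platelets, which also carry PECAM1, 5 were tested. Their summed expression, of which *Gp9* is a part, was 8.25 to 15.1 FPKM in Ctrl and 8.02 to 8.98 in cKO. The 5 fold changes had a median of -0.06, with 2 above 0 and 3 below. Among them *Gp9*, a subunit of the platelet receptor for von Willebrand factor, was at 7.57, 6.38 and 2.34 FPKM in Ctrl and 1.32, 1.22 and 1.92 in cKO. It fell by 1.27 (limma p = 0.00950, adjusted p = 0.978, exact permutation p = 0.1). With all 6 libraries, *Gp9* alone of the 5 passed the unadjusted limit, against 4.43% of all genes tested. It passed under every alternative, whereas *Gp1bb*, another subunit of that receptor, was listed at 0 in all 6 libraries. The part of these cell types in the levels of the endothelial markers was not tested.

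**Figure D5:**
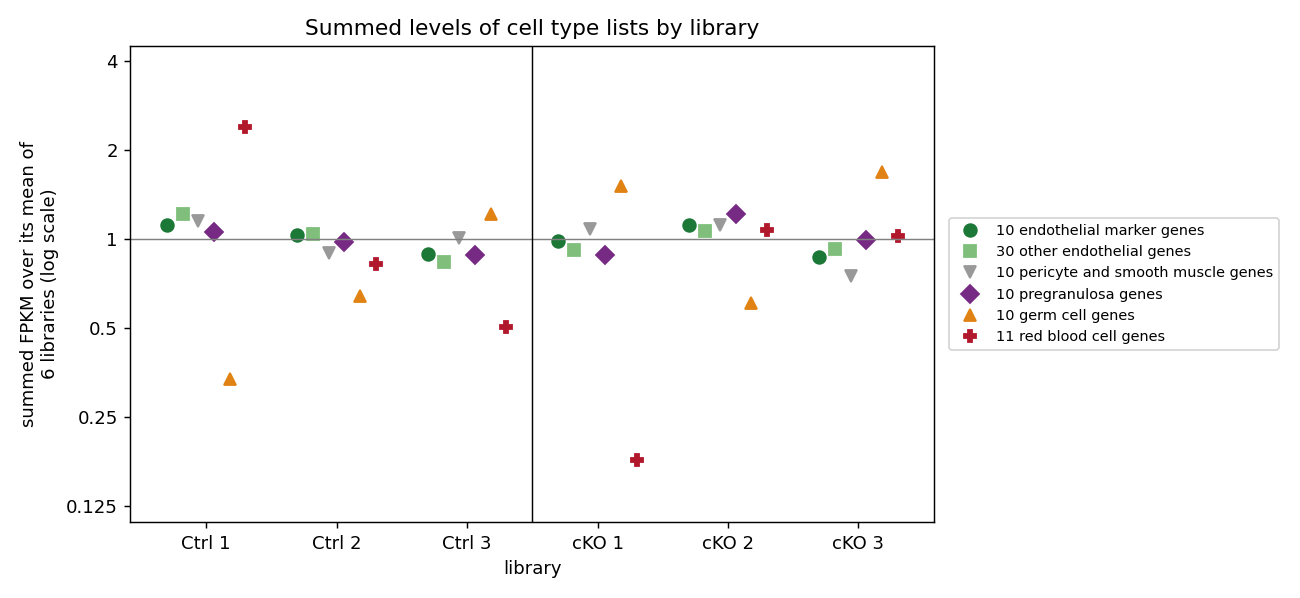
Summed FPKM of the endothelial markers, other endothelial genes and genes of other cell types in each library, on a log scale, each list divided by its own mean over the libraries. Endothelial markers range 1.28-fold over the libraries, germ-cell genes 4.999-fold and red blood cell genes 13.4-fold.

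A list of 30 other endothelial genes was counted beside the 10 markers. In limma 0 of the 30 passed the unadjusted limit, against 4.43% of all genes tested. Their median fold change was -0.02, with 13 above 0 and 17 below. Their sum was 279, 239 and 192 FPKM in Ctrl and 211, 244 and 213 in cKO. It includes *Tal1*, described below, which held 40.0 FPKM of it in Ctrl 1 and 3.84 in cKO 1. The 3 with the highest level were *Ramp2*, a subunit of the adrenomedullin receptor (fold change 0.23), *Eng*, a co-receptor of the TGF-beta family (-0.20), and *Ets1*, a transcription factor (0.01). *Ramp2* passed the limit without Ctrl 1, at 0.39 (limma, adjusted p = 1.0). The groups did not overlap for 1 of the 30, against 8.68% of all genes tested. That gene, *Mmrn2*, was chosen here after its values were seen. This extracellular matrix protein of vessels was at 4.03, 3.57 and 3.39 FPKM in Ctrl with 3.17, 3.09 and 2.71 for cKO (-0.22, limma adjusted p = 0.978, exact permutation p = 0.1). *Tal1*, likewise chosen after its values were seen, is a transcription factor that red cell precursors share with endothelium. It was at 40.0, 18.9 and 4.94 FPKM in Ctrl and at 3.84, 7.19 and 13.6 in cKO (-1.02, SE 0.72, limma p = 0.201, exact permutation p = 0.4). Without Ctrl 3 it passed the unadjusted limit, at -1.78 (limma, adjusted p = 0.657). Its 10.4-fold range over libraries stood beside that of the red blood cell sum, which was highest in Ctrl 1 and lowest in cKO 1 as well, and the part of red cells was not tested.

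Ligands and co-receptors of vessel growth held 20 genes, of which 0 passed the limit in limma, against 4.43% of all genes tested. Their median fold change was -0.05. The 3 highest were *Vegfa*, the main ligand of *Kdr* and *Flt1*, at 45.5 FPKM over the 6 libraries (fold change 0.05), *Vegfb*, a ligand of *Flt1*, at 36.0 FPKM (-0.11), and *Aplnr*, the apelin receptor, at 17.4 FPKM (0.18). *Vegfb* passed without cKO 2, as *Cldn5* did, at -0.39 (limma, adjusted p = 0.318), where 2493 of the 17180 genes tested passed. *Angpt2*, a ligand of TIE2 that was chosen here after its values were seen, was at 1.99, 2.80 and 2.81 FPKM in Ctrl and at 2.23, 1.49 and 0.954 in cKO. Its fold change was -0.49 (SE 0.22, limma p = 0.0629, exact permutation p = 0.2), with cKO 1 inside the range of Ctrl and the other 2 cKO libraries below it. It passed the unadjusted limit in voom on the recovered reads (-0.76, adjusted p = 0.989), without Ctrl 1 (-0.60, adjusted p = 1.0) and without cKO 1 (-0.67).

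Genes that tell vessel types apart were counted in the same way, beside 4.43% of all genes tested past the unadjusted limit. Of 8 arterial genes tested, 0 passed in limma (median -0.07), and the highest in level were *Efnb2*, *Cxcl12* and *Unc5b*. Of 5 venous genes, 0 passed (median 0.05), and the highest were *Ephb4*, *Aplnr* and *Nr2f2*. Of 7 genes of tip cells, which lead a growing sprout, 2 had a fold change above 0 and 5 below (median -0.06). Only *Kcne3*, a potassium channel subunit, passed, at 0.337, 0.590 and 0.290 FPKM in Ctrl and 0.909, 0.670 and 1.11 in cKO (0.43, limma p = 0.0434, adjusted p = 0.978, exact permutation p = 0.1). Its mean was below the minimum of 0.5 in Ctrl (0.406) and above it in cKO (0.896), so it entered the test through cKO. It held 9 to 28 reads per library and was not tested with a minimum mean FPKM of 1. Of 4 lymphatic genes tested, 1 had a fold change above 0 and 3 below (median -0.11), and 1 passed, lower in cKO. It was *Ccl21a*, a chemokine of lymphatic endothelium with near-identical copies among which reads may be split. The symbol has 2 rows, of which ENSMUSG00000095320 was tested. The other, ENSMUSG00000094686, held at most 1 read in any library and was not tested. Values of the tested row were 0.663, 1.84 and 7.40 FPKM in Ctrl and 0.161, 0 and 0.350 in cKO (-1.55, limma p = 0.0266, adjusted p = 0.978, exact permutation p = 0.1). *Ccl21a* entered the test through Ctrl, with means of 3.30 FPKM in Ctrl and 0.170 in cKO. *Kcne3* missed the limit without Ctrl 1 (0.40), Ctrl 3 (0.37), cKO 1 (0.42) or cKO 3 (0.35) and with the replicate number as a block, and *Ccl21a* without cKO 1 (-1.55) or cKO 2 (-1.45). *Ccl21a* rested largely on Ctrl 3, which held 52 of its reads against 12 or fewer in any other library, and without Ctrl 3 its fold change was -0.90, still past the limit. Of 10 genes of pericytes and smooth muscle, 0 passed (median -0.10).

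The genes whose centred values over the 6 libraries lay nearest to the mean of the 10 markers were taken from 12827 genes whose mean FPKM reached 1 and whose range reached 0.31, that of the markers' mean. The nearest 5 were *Impa1*, *Eif3k*, *Vps28*, *Mmachc* and *Kdm4a*, with mean absolute differences of 0.0251, 0.0263, 0.0273, 0.0280 and 0.0282 on the log2 scale. None of them is on an endothelial list, and they lay nearer to the mean than any single marker, of which *Tek* was nearest at 0.0457 and *Kdr* farthest at 0.196. The nearest of the 30 other endothelial genes, the transcription factor *Fli1*, was 38th among the candidates at 0.0424. The likeness was measured over 6 libraries that differ in depth and in the summed levels of genes of other cell types, and is given as a description.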

How the data were processed

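RNA of whole ovaries was sequenced in 3 Ctrl and 3 cKO libraries, grouped by their labels. The authors mapped read pairs to mm10 (GRCm38) with HISAT2 2.0.5, counted reads per gene with featureCounts, tested the counts with DESeq2 and deposited FPKM values. Which annotation release was used, and whether strand was, is not stated in the sources used here. Since the table holds FPKM, log2(FPKM + 1) was fitted with limma 3.58.1 in R 4.3.3, with an intensity trend and genotype as the only term. Gene lengths were given in the table. Reads were recovered as FPKM multiplied by length and divided by the value of a single read, which was fitted in each library and gave whole reads. Depth was 14212164 to 16784241 reads on genes. At this depth the markers had a counting error of 2.23% to 6.61% of their level. The fit was tested on simulated libraries with known changes.

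Tables were read with pandas 2.3.3 and numpy 2.4.6 under Python 3.11.15, permutation tests were run with numpy, and figures used matplotlib 3.10.9. Exons came from GENCODE M21 and promoter windows from RefSeq. The markers and gene lists were chosen with earlier results of these data known. Named genes are the 10 markers, *Srsf1*, list genes past the unadjusted limit (at most 5 per list), otherwise at most the 3 highest of a list, and the 5 genes most like the markers. *Mmrn2*, *Tal1*, *Angpt2*, *Fli1*, *Gp1bb* and *Gm37587* fall outside this rule and were named after their values were seen. Not every list gene under this rule is printed. Other choices tried were pseudocounts of 0.1 and 0.5, a minimum mean FPKM of 1 or none, leaving each library out, a block for the replicate number, no intensity trend, voom on recovered reads and median-ratio scaling.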

Additional observations from a re-analysis of the deposited data

How the results depend on the processing

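None of the 10 endothelial markers passed the unadjusted limit in limma under any alternative that kept all 6 libraries. Of 140 recomputed fold changes of markers, 1 passed (*Cldn5* without cKO 2) and 17 changed sign, all of them with a library left out. Without a minimum FPKM, when 33797 genes were tested, 1331 genes passed, 736 higher and 595 lower. When libraries were left out singly, the count over all genes ran from 364 (without Ctrl 2) to 2493 (without cKO 2), 201 to 1457 higher and 163 to 1036 lower. More genes were lower than higher without Ctrl 1 (243 higher, 382 lower) and without Ctrl 3 (548 higher, 628 lower), and 4 genes passed the adjusted limit without Ctrl 1, against 0 under every other setting. The number of markers past the unadjusted limit ran from 0 to 1, of other endothelial genes from 0 to 1 and of genes of the remaining lists from 4 to 14, beside 6 with all libraries. These counts moved with those of all genes tested. The 14 came without cKO 2, where 2493 of 17180 genes passed, against 761 with all libraries. The 4 came without cKO 1 or cKO 3, where 441 and 424 genes passed. The median of the markers ran from -0.15 to 0.02 and *Srsf1* from -1.07 to -0.90. Single markers ran from 0.02 to 0.15 (*Pecam1*), -0.22 to 0.0251 (*Cdh5*), -0.0918 to 0.14 (*Kdr*), -0.16 to 0.0645 (*Tek*), -0.15 to 0.0348 (*Flt1*), -0.19 to -0.04 (*Tie1*), -0.0100 to 0.20 (*Emcn*), -0.16 to 0.0714 (*Esam*), -0.34 to 0.0654 (*Cldn5*) and -0.22 to 0.00548 (*Sox17*). The log2 ratios differed by -0.25 to 0.0920 for *Flt1* to *Kdr*, -0.0408 to 0.16 for *Tek* to *Tie1* and 0.12 to 0.26 for *Pecam1* to *Cdh5*. Fewer libraries were fitted in each, and the cause of the changes in sign was not tested.

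Deviations from the group means correlated at -0.39, -0.03 and 0.12 between libraries of the same number, and not every library correlated best with its own number. These correlations gave no sign that the replicate numbers pair the libraries. With 3 libraries per group they cannot show that pairing was absent. With the replicate number as a block, 681 genes passed the unadjusted limit and 0 markers did.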
